A study of Mus musculus with 2 samples.

Results

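A group of 8 genes that regulate the receptive state of the uterus were followed in single cells of the mouse endometrium. These were Lif, Lifr, Il6st, Stat3, Msx1, Msx2, Klf5 and Sox17, chosen by name, and all 8 were among the 19070 genes of the deposited tables. Each symbol matched 1 row of each table. Their unique molecular identifiers (UMIs, one per captured molecule) were summed by library and by cell class.

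There were 2 libraries, 1 for each genotype, both from uteri on day 3 of pregnancy with 9 AM in the library name. One was labelled Erbb3 f/f, the control carrying the floxed alleles, and the other Erbb3 d/d, which the series text describes as a stromal deletion of Erbb3, a receptor of the ErbB family. The labels name neither the Cre driver, the strain, the age of the females nor the number of mice behind a library. Fixation preceded dissociation of the endometrium, and the cells are labelled only as endometrial. The assay was Chromium Flex (the protocol text also names another kit), in which pairs of probes bind each transcript in fixed cells, so levels are compared within a gene and never between genes.

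Leukemia inhibitory factor, the product of Lif, is secreted by uterine glands before implantation. It binds the receptor encoded by Lifr, which pairs with gp130, the product of Il6st, on target cells, and the receptor activates JAK kinases and the transcription factor STAT3 in the epithelium. Msx1 and Msx2 encode homeobox factors of the uterine epithelium, Klf5 a zinc finger factor and Sox17 an HMG-box factor also known from endothelium. Mice that lack Lif, epithelial Stat3 or both Msx genes in the uterus fail to implant embryos.

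Lif lies at chr11:4257557-4272514 on the plus strand, Lifr at chr15:7090614-7197489 (plus), Il6st at chr13:112464070-112510086 (plus) and Stat3 at chr11:100885098-100939540 (minus). Msx1 lies at chr5:37820485-37824583 (minus), Msx2 at chr13:53466884-53473074 (minus), Klf5 at chr14:99298691-99315036 (plus) and Sox17 at chr1:4490931-4497354 (minus). These are whole-gene positions of protein-coding genes in the GENCODE annotation of GRCm38, matched by the gene identifier of the tables.

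The 250 bases before the transcription start are shown for the ligand gene Lif and for Stat3, the transducer gene with the lower epithelial level in the d/d library described below. Both are RefSeq windows on GRCm38.p6, written 5′ to 3′ on the strand of the gene, at chr11:4257318-4257567 (plus) for Lif and chr11:100939541-100939790 (minus) for Stat3. Capitals mark matches to the searched motifs.
Lif: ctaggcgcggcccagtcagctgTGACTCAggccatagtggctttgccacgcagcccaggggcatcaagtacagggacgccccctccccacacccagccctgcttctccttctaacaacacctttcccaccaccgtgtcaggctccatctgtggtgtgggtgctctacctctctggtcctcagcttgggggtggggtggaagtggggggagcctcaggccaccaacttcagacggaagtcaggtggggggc
Stat3: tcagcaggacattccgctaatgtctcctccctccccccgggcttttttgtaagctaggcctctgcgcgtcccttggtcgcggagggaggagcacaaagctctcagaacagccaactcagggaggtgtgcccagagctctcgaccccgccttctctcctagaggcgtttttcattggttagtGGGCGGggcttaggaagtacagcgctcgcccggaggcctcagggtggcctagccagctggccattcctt
The motifs searched were TTCNNNGAA (the core site of STAT factors), TGANTCA (AP-1) and GGGCGG (KLF and SP factors), on both strands, so that CCGCCC marks the reverse of the last. The Lif window held 1 AP-1 match, TGACTCA, whose first base lay 228 bases before the start. The Stat3 window held 1 KLF/SP match, GGGCGG, starting 69 bases before the start. Of the 8 genes 6 had a window in the RefSeq table, 7 windows in all, and 0 of these genes had a STAT match. Over all 32851 windows, 7.02% held the STAT motif, 6.75% the AP-1 motif and 32.7% the KLF/SP motif. A match describes letters in the window and is not a measured site.

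Cells were assigned to classes by marker genes that include none of the 8. A cell entered a class with at least 2 UMIs of that marker list and at least 66.7% of its marker UMIs from it. The f/f and d/d libraries gave 1708 and 563 epithelial-like, 1647 and 429 stroma-like, 129 and 40 endothelial-like, and 63 and 29 myeloid-like cells. Mesothelial-like, smooth muscle- or pericyte-like and lymphoid-like cells numbered 28 or fewer in each library, and 1899 and 747 cells stayed ungated. All 9 epithelial and all 8 stromal markers were detected in their own class in both libraries. In f/f and d/d the counts were 10 and 9 of 11 myeloid, 9 and 7 of 9 smooth muscle or pericyte, and 2 and 5 of 10 lymphoid markers. The 10 leading genes of each of the 7 classes held 0 markers of another class. The gate used these same markers, so these counts do not check the class names. Glandular markers (Foxa2, Cxcl15 and others) picked out 13 f/f and 3 d/d epithelial-like cells, too few to describe separately.

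The f/f library held 5503 cells and 5517795 UMIs after filtering and the d/d library 1830 cells and 1712695 UMIs, with medians of 809 and 764.5 UMIs per cell. The libraries shared 0 full barcodes. With 1 library for each genotype no test was possible, the spread between mice is unknown, and a difference between genotypes cannot be told apart from a difference between preparations. All intervals below are 95% intervals that cover counting error only. Erbb3 itself gave 19 UMIs in f/f against 5 in d/d stroma-like cells, 11.9 and 12.6 UMIs per 1e6 UMIs of the class (CPM). Differences between the libraries are given as log2 of the d/d level divided by the f/f level, here 0.08 (-1.70 to 1.55). For epithelial-like cells the Erbb3 counts were 144 and 29, or 79.9 and 53.1 CPM. That log2 difference was -0.59, with an interval just below 0 (-1.22 to -0.0069). The position of the Erbb3 probes relative to the deleted exons is not given in the sources used here, so neither value checks the label.

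**Figure D1:**
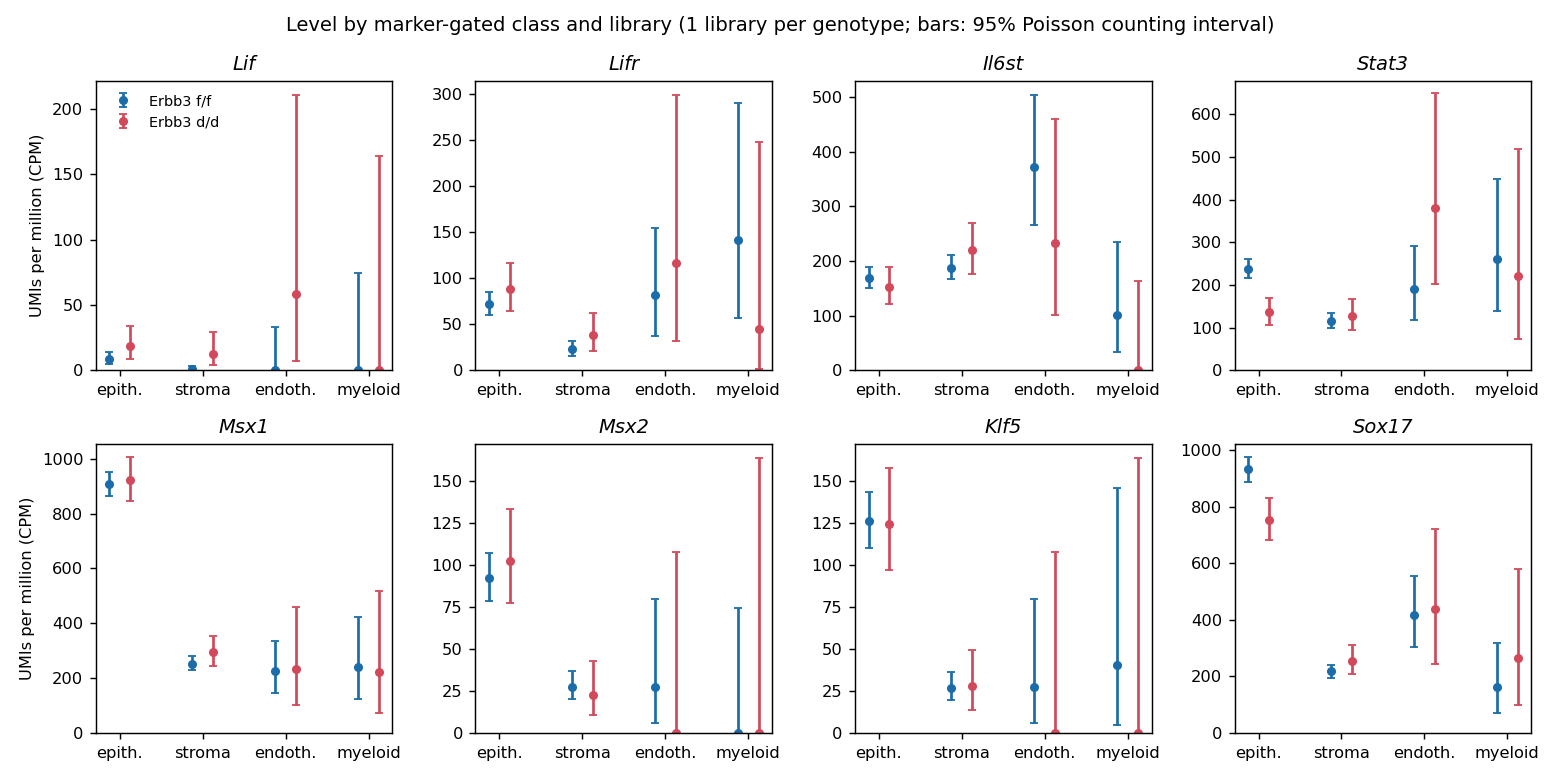
Level of each of the 8 genes (y axis, CPM) in epithelial-like, stroma-like, endothelial-like and myeloid-like cells (x axis) of the f/f (blue) and d/d (red) library, with 95% Poisson counting intervals. Of these 4 classes, epithelial-like cells held the highest level of Msx1, Msx2, Klf5 and Sox17 in both libraries, and Stat3 in epithelial-like cells was 237 CPM in f/f and 135 CPM in d/d.

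The ligand was near the limit of detection. Lif gave 23 UMIs in 22 of 5503 f/f cells and 28 UMIs in 23 of 1830 d/d cells, with at most 2 and 4 UMIs in any one cell. In f/f, 15 of these UMIs were in epithelial-like cells, 1 in stroma-like cells and 7 in ungated cells. In d/d, 10 were in epithelial-like, 5 in stroma-like, 2 in endothelial-like and 11 in ungated cells. Epithelial-like and ungated cells together carried most Lif UMIs in both libraries, but also most UMIs of all genes. They held 1802305 and 1912009 of 5517795 UMIs in f/f, and 546430 and 695616 of 1712695 in d/d.

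The Lif level over all cells was 4.17 CPM in f/f and 16.3 CPM in d/d, a log2 difference of 1.97 (1.12 to 2.83). Within epithelial-like cells it was 8.32 CPM in f/f and 18.3 CPM in d/d, a log2 difference of 1.14 whose interval of -0.18 to 2.39 included 0. Within stroma-like cells it was 0.626 and 12.6 CPM, a log2 difference of 4.33 (1.17 to 9.89) that rests on 1 UMI in f/f. Within ungated cells it was 3.66 and 15.8 CPM, from 7 and 11 UMIs, a log2 difference of 2.11 (0.61 to 3.72). The higher Lif level in d/d was thus seen over all cells, in ungated cells and in stroma-like cells. It was not resolved in epithelial-like cells as a whole at this depth. Lif was below the minimum of 100 UMIs used for the counts of genes given below. No Lif UMI was seen in the 63 f/f or 29 d/d myeloid-like cells, where 3 counts, taken as the limit that a count of 0 allows, would be 60.4 and 133 CPM.

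In a second grouping of the cells by Leiden clustering, which used none of the 8 genes, 15 of the 28 d/d Lif UMIs were in cluster 4. This epithelial-like cluster was led by mitotic genes (Knstrn, Ankle1, Kif11) and held 593 d/d and 143 f/f cells. It held 607659 of the 1712695 d/d UMIs of all genes. The Lif level there was 24.7 CPM (13.8 to 40.7) in d/d and rested on 1 UMI in f/f. In d/d the 10 epithelial-like Lif UMIs were all in cells with a UMI of a 20-gene proliferation list, and 0 were in the other 141 cells, where 3 counts would be 27.6 CPM. Cells with such a UMI held 437880 of the 546430 d/d epithelial-like UMIs. The log2 difference between the 2 groups had a lower bound of -0.85 and was not resolved. In f/f 8 epithelial-like Lif UMIs were in cells with a proliferation UMI and 7 in the rest. Cluster 5, whose 10 leading genes include the glandular marker Cxcl15, held 1 Lif UMI in 421 f/f cells and 3 in 239 d/d cells. In f/f, Lif was 10.5 CPM (2.87 to 26.96) from 4 UMIs in cluster 7, led by Syn2. That was the highest f/f epithelial-like cluster, with overlapping intervals. The f/f Syn2 state described below held 3 Lif UMIs in 106 cells, at 26.1 CPM. The Lrp2 state held 7 in 750 cells and the unmarked epithelial-like cells 3 in 762. Log2 differences of the Syn2 state over these were 1.71 (-0.88 to 3.84) and 2.60 (-0.30 to 5.50), neither resolved. In d/d the Syn2 state held 0 in 6 cells.

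Both receptor subunits gave UMIs in epithelial-like and in stroma-like cells. The f/f level of Lifr lay within the range of epithelial markers in both stroma-like Leiden clusters, as given below. In d/d it lay within that range in cluster 1 and above it in cluster 3, at 73.7% of its epithelial level against at most 59.7%. Lifr, the ligand-binding subunit, gave 129 UMIs in f/f against 48 in d/d epithelial-like cells, or 71.6 and 87.8 CPM, with a log2 difference of 0.30 (-0.21 to 0.78). In stroma-like cells it gave 36 and 15 UMIs, or 22.5 and 37.8 CPM, with a log2 difference of 0.74 (-0.23 to 1.65). Neither difference was resolved from 0. Among epithelial-like cells without a UMI of a proliferation gene, 64 and 16 UMIs gave 69.1 and 147 CPM, and the log2 difference was 1.09 (0.20 to 1.90). Within the f/f library Lifr was 3.18-fold higher in epithelial-like than in stroma-like cells (2.18 to 4.73), and its level in endothelial-like cells, 81.5 CPM from 9 UMIs, did not differ from the epithelial one beyond counting error. Among the 4 larger classes the order of the f/f levels was myeloid, endothelial, epithelial, stroma, in which only the stroma-like level was set apart from its neighbour.

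Il6st, the signalling subunit gp130 shared by the interleukin 6 family, was found in every f/f class but the 3 lymphoid-like cells, with no excess in epithelium over stroma. It gave 304 UMIs in f/f against 83 in d/d epithelial-like cells, or 169 and 152 CPM, with a log2 difference of -0.15 (-0.52 to 0.20) that became -0.66 without the Lrp2 state described below and -0.55 with every cell thinned to 500 UMIs. Stroma-like cells gave 300 and 87 UMIs, or 188 and 219 CPM, with a log2 difference of 0.22 (-0.14 to 0.57). Of the 4 larger classes, endothelial-like cells stood highest in both libraries, at 371 CPM (41 UMIs) in f/f and 234 CPM (8 UMIs) in d/d. The small f/f mesothelial-like and smooth muscle- or pericyte-like classes had 531 and 410 CPM, from 9 and 11 UMIs. In f/f the endothelial-like level was above the stroma-like one by 0.98 on the log2 scale (0.48 to 1.46), whereas stroma and epithelium did not differ beyond counting error. In d/d epithelial-like cells were below stroma-like cells by a log2 difference of -0.53 (-0.98 to -0.08).

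Within the epithelium Il6st differed between cell states by more than it did between the libraries. The states were taken from earlier results of these data and are named by marker genes. In f/f, cells marked by Syn2, Gulo and Dab1 had 453 CPM of Il6st (52 UMIs in 106 cells), cells marked by Lrp2, Slc5a11 and Slc51a had 102 CPM (89 UMIs in 750 cells), and epithelial-like cells outside all marked states had 185 CPM (129 UMIs in 762 cells). The Syn2 state exceeded the Lrp2 state by 2.15 on the log2 scale (1.63 to 2.66), and it exceeded the remaining cells by 1.29 (0.80 to 1.76). The d/d library held 6 and 21 cells of these states, and 3 and 6 Il6st UMIs, so the contrast was not resolved there.

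By Leiden cluster, in f/f, Il6st was 513 CPM in cluster 7 (led by Syn2 and Fam83a, 507 cells) and 426 CPM in cluster 5 (led by Clca3b and Clca3a2, 421 cells). It was 107 CPM in cluster 2 (Arvcf, Tmod1 and Slc5a11, 816 cells) and 116 CPM in cluster 0 (Ptpn22 and Bcl2l15, 707 cells). The Syn2-led cluster was therefore again far above cluster 2, which holds Lrp2 among its leading genes. Lrp2 is also a leading gene of cluster 6 (537 cells), where Il6st was 194 CPM (164 to 229), above the 116 CPM (88.8 to 148) of cluster 0, so the clusters with Lrp2 were not all below the others. In d/d, cluster 7 again stood high, at 536 CPM from 13 UMIs in 38 cells, beside 126 CPM in cluster 0. Cluster 5 was lower in d/d, at 251 CPM (188 to 328), than in f/f, where the interval was 366 to 493 CPM.

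**Figure D2:**
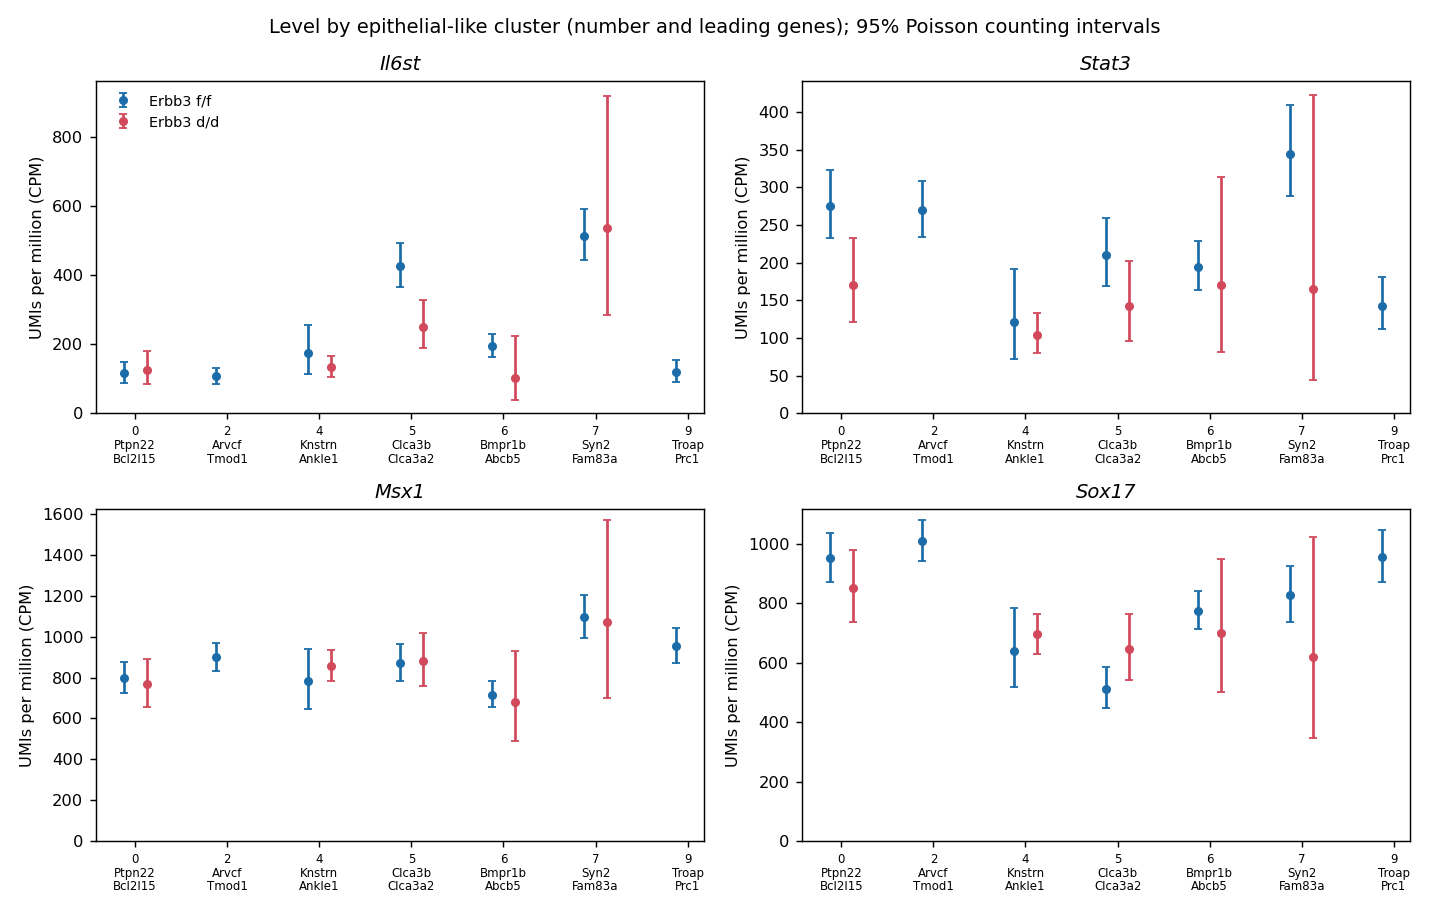
Level of Il6st, Stat3, Msx1 and Sox17 (y axis, CPM) in the 7 epithelial-like Leiden clusters (x axis, cluster number and its leading genes) of the f/f (blue) and d/d (red) library, with 95% Poisson counting intervals. The d/d points of clusters 2 and 9, with 19 and 3 cells, are not drawn. Il6st spans 107 to 513 CPM over the f/f clusters, Msx1 717 to 1095 CPM.

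Stat3, the transcription factor downstream of the receptor, showed the largest difference between the libraries among the 7 of these genes with at least 100 UMIs in epithelial-like cells. It gave 427 UMIs in the 1708 f/f cells and 74 in the 563 d/d cells, or 237 and 135 CPM. The log2 difference was -0.81 (-1.18 to -0.45). Of 5961 genes with at least 100 UMIs in this class, 7.82% had a lower ratio. Before thinning, 360 of 1708 epithelial-like cells in f/f and 62 of 563 in d/d had a Stat3 UMI, and after every cell was thinned to 500 UMIs the shares were 11.8% and 4.97%. In myeloid-like cells, in which Stat3 is also expressed, the thinned share was 14.3% in f/f.

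In stroma-like cells Stat3 did not differ beyond counting error. There it gave 184 and 50 UMIs, which is 115 and 126 CPM, and the log2 difference was 0.13 (-0.35 to 0.59), or 0.59 where stroma was defined by Leiden clusters (115 and 42 UMIs). The epithelial log2 difference was below the stromal one by -0.94 (-1.51 to -0.36). The class contrast differed accordingly between libraries. In f/f Stat3 was 2.06-fold higher in epithelial-like than in stroma-like cells, and in d/d the log2 difference of the classes was 0.11 (-0.43 to 0.65). Endothelial-like cells had 190.2 CPM in f/f (21 UMIs) and 379 CPM in d/d (13 UMIs), with an interval of -0.12 to 2.06 for the log2 difference.

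In a split by a UMI of the proliferation list, epithelial Stat3 was lower in d/d in the cells with such a UMI. No difference was resolved in the epithelial-like cells without one. Among the former, 163 UMIs in 696 f/f cells gave 186 CPM and 43 UMIs in 422 d/d cells gave 98.2 CPM, a log2 difference of -0.92 (-1.44 to -0.43). Among the latter, 264 UMIs in 1012 f/f cells gave 285 CPM and 31 UMIs in 141 d/d cells gave 286 CPM, a log2 difference of 0.0031 (-0.58 to 0.54). The ratios differed by -0.93 (-1.65 to -0.20), a comparison added after their values were seen. The median depth of the cells without a proliferation UMI was 825 UMIs in f/f against 697 in d/d. Cells with one had medians of 1083 and 964 UMIs, so the split also separated shallower from deeper cells.

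Within each library Stat3 was lower in the cells with a proliferation UMI. The log2 difference over the other epithelial-like cells was -0.61 (-0.91 to -0.33) in f/f and -1.54 (-2.24 to -0.82) in d/d. Cells of this kind made up 31.6% of f/f epithelial-like cells (29.4 to 33.9%) and 68.7% of d/d ones (64.7 to 72.5%) after thinning to 500 UMIs, against 40.7% and 75.0% before. The part of this share in the Stat3 difference was not tested.

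By Leiden cluster, the Stat3 intervals of the libraries were apart in cluster 0 alone. There the level was 275 CPM (150 UMIs, 233 to 323) in f/f and 170.0 CPM (39 UMIs, 121 to 232) in d/d. In clusters 4, 5, 6 and 7 the d/d value was the lower one but the intervals overlapped. Cluster 5 had 211 CPM (169 to 259) and 142 CPM (95.9 to 203), and cluster 6 had 194 CPM (164 to 229) and 171 CPM (81.8 to 314, from 10 UMIs). Cluster 7 had 345 CPM (288 to 409) in f/f and 165 CPM (45.0 to 423) from 4 UMIs in d/d. In the mitotic cluster 4 both libraries were low, at 121 CPM (18 UMIs) in f/f and 104 CPM (63 UMIs) in d/d. The proliferation list summed to 618 and 1085 CPM in f/f and d/d of cluster 0, against 6754 and 5806 CPM in cluster 4. The Stat3 intervals of cluster 0 were barely apart, with a lower bound of 232.9 CPM in f/f and an upper bound of 232.4 CPM in d/d. The part of proliferation in that difference was not tested. The second mitotic cluster, 9, had 143 CPM from 302 f/f cells, and 3 d/d cells. Cluster 2, with 816 f/f cells at 269.6 CPM (216 UMIs), held 19 d/d cells and 7 Stat3 UMIs at 415 CPM (167 to 856). The Lrp2 state of the marker gate went the same way, with 229 CPM from 200 UMIs in f/f and 500.2 CPM from 11 UMIs in 21 d/d cells, a log2 difference of 1.13 with a lower bound of 0.10. The Stat3 values were therefore not lower in d/d in every epithelial state. The clusters with most epithelial-like cells were 2, 0, 6 and 7 in f/f and 4, 0 and 5 in d/d.

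**Figure D3:**
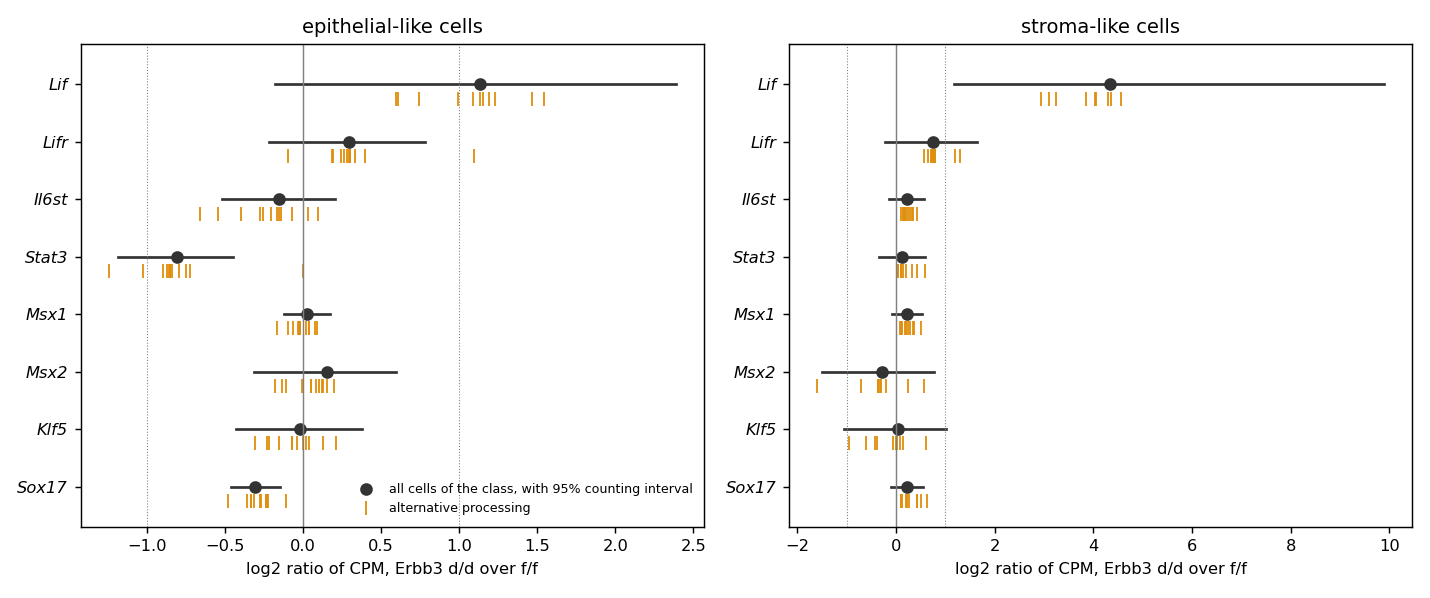
Log2 ratio of CPM, d/d over f/f (x axis), for each of the 8 genes (y axis) in epithelial-like cells (left) and stroma-like cells (right). Black circles with bars are the values over all cells of the class with 95% counting intervals, orange ticks the values under alternative processing, dotted lines 2-fold. In the left panel the Stat3 and Sox17 bars lie below 0, and 1 Stat3 tick, for cells with no proliferation UMI, lies at 0.

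The homeobox gene Msx1 had the narrowest interval of the 8 in the epithelium and did not differ between the libraries beyond it. It gave 1635 UMIs in f/f against 505 in d/d epithelial-like cells, or 907 and 924 CPM, with a log2 difference of 0.03 (-0.12 to 0.17), or -0.17 when all deposited barcodes were used. Cells with and without a proliferation UMI were alike in f/f, at 908 and 907 CPM. Over the f/f epithelial-like clusters Msx1 ran from 717 CPM in cluster 6 to 1095 CPM in cluster 7, a narrower range than that of Il6st. A Msx1 UMI was present in 874 of 1708 epithelial-like cells in f/f and 293 of 563 in d/d, and after thinning to 500 UMIs in 32.7% and 33.7%.

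Msx2, its paralog, gave 166 and 56 UMIs in epithelial-like cells, or 92.1 and 102 CPM, with a log2 difference of 0.15 (-0.31 to 0.60). Within f/f it was higher outside the marked states than in the Lrp2 state by 0.66 on the log2 scale (0.14 to 1.18), and cluster 2 was the lowest epithelial-like cluster, at 42.4 CPM, beside 139 CPM in cluster 0 and 189 CPM in cluster 4. The paralogs therefore had different patterns over the f/f clusters. Msx1 was 899 CPM in cluster 2 and 796 CPM in cluster 0.

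Klf5 gave 227 and 68 UMIs in epithelial-like cells, or 126 and 124 CPM, with a log2 difference of -0.02 (-0.43 to 0.38). Over the f/f clusters it was 136 CPM in cluster 0 and 130 CPM in cluster 2, and 59.8 CPM in cluster 5 and 71.1 CPM in cluster 7. Clusters 5 and 7, the highest for Il6st, were thus among the 3 lowest for Klf5, with cluster 4 at 67.4 CPM. In f/f epithelial-like cells Klf5 was 4.68-fold higher than in stroma-like cells (3.36 to 6.64), where 43 and 11 UMIs gave 26.9 and 27.7 CPM.

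Sox17 gave 1678 UMIs in f/f against 412 in d/d epithelial-like cells, or 931 and 754 CPM. The log2 difference was -0.30 (-0.46 to -0.15), or -0.48 with all deposited barcodes, and the main value is a change of -19.0% in level. Of the 5961 genes 28.6% had a lower ratio, so the difference was resolved by counting but was not among the larger ones of this class. It was -0.33 (-0.52 to -0.14) in cells with a proliferation UMI and -0.11 (-0.43 to 0.20) in the others. Across f/f clusters Sox17 was 512 CPM in cluster 5 and 640 CPM in cluster 4, against 1008 CPM in cluster 2, and in cluster 5 the d/d level was 644 CPM (541 to 762, against 446 to 585 in f/f).

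Sox17 was also found in endothelial-like cells, at 417 CPM (46 UMIs) in f/f and 438 CPM (15 UMIs) in d/d. In f/f this exceeded the stroma-like level by 0.94 on the log2 scale (0.46 to 1.39) and the myeloid-like level by 1.37 (0.27 to 2.67), and was below the epithelial-like one. Endothelial-like cells held epithelial marker genes at 290 and 263 CPM, stroma-like cells at 354 and 433 CPM and myeloid-like cells at 302 and 311 CPM. The level of Msx1 was 226 CPM in endothelial-like and 242 CPM in myeloid-like f/f cells.

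In stroma-like cells all 4 epithelial transcription factors gave UMIs at a low level. Msx1 gave 404 and 117 UMIs, 253 and 295 CPM, with a log2 difference of 0.22 (-0.09 to 0.52). Sox17 gave 347 and 101 UMIs, 217 and 254 CPM, with a log2 difference of 0.23 (-0.11 to 0.55), or 0.62 after thinning, and Msx2 gave 44 and 9 UMIs. None of the differences over all cells was resolved from 0. The summed epithelial markers in the same cells were likewise higher in d/d, at 354 CPM in f/f and 433 CPM in d/d, against 3535 and 3700.4 CPM in epithelial-like cells.

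These stromal levels were set beside those markers in the Leiden clusters. In stroma-like cluster 1 (led by Col7a1 and Pth1r, 812 f/f cells) Msx1 was at 11.7%, Msx2 at 13.6%, Klf5 at 3.00% and Sox17 at 10.5% of its level in the epithelial-like clusters of the same library. The 9 epithelial markers summed to 7.17% of their epithelial level there, with single markers from 2.79 to 24.8%, so the 4 genes lay within the range of genes used to define epithelium. Il6st at 67.8% and Stat3 at 32.1% lay above that range, and Lifr at 19.7% within it. In stroma-like cluster 3, which was led by mt-Nd6, Igha, Col6a4 and Igkc, the percentages of these 7 genes were higher, at 32.0% for Msx1 and 24.2% for Sox17 beside 23.1% for the marker sum. Stat3 at 38.4% and Lifr at 38.7% lay within the range of single markers there (12.7 to 40.1%), and Il6st at 96.7% lay above it. In d/d cluster 1 the values were 7.51% for Msx1 and 10.3% for Sox17 beside a marker sum of 8.81%. After thinning, 7.94% of myeloid-like and 9.48% of stroma-like cells of f/f had a Msx1 UMI, at median depths of 676 and 756 UMIs before it (17.5% and 17.2% of cells unthinned). Whether the stromal counts of Msx1, Msx2, Klf5 and Sox17, or of Lifr in f/f, reflect stromal expression was not tested. They are not read as such here.

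Over both classes, 7 of the 8 genes in epithelial-like cells and 4 of the 8 in stroma-like cells (Il6st, Stat3, Msx1 and Sox17) reached 100 UMIs. In epithelial-like cells 3 of the 7 were higher and 4 lower in d/d, 0 were past 2-fold, and the intervals of 2 (Stat3 and Sox17) excluded 0. Of all 5961 genes tested there 9.14% were past 2-fold, 19.3% had an interval below 0 and 19.5% one above 0. In stroma-like cells 4 of 4 were higher in d/d, 0 were past 2-fold and 0 intervals excluded 0, where 4.39% of 5652 genes were past 2-fold. Of those 5652 genes 2376 were higher in d/d, 840 had an interval below 0 and 619 one above 0. The log2 differences of the counted members had a median of -0.02 in epithelial-like and 0.22 in stroma-like cells, beside -0.03 and -0.08 over all genes of the class.

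The other genes of the pathway were described from 11 lists of 121 genes, of which 120 were measured. Apart from the proliferation list, 53 reached 100 UMIs in epithelial-like cells, with 21 higher and 32 lower in d/d and a median log2 difference of -0.13. At 2-fold 3 were higher and 6 lower, where 4.48% of all genes were higher and 4.66% lower. For the lists below, 52.3% of the 5961 genes had a lower value in d/d, whatever its interval, 19.3% had an interval below 0 and 19.5% one above 0. In stroma-like cells 39 were counted, 22 higher and 17 lower, with 1 past 2-fold in each direction, against 1.56% and 2.83% of all genes, and a median of 0.07. From a minimum of 20 UMIs and with the proliferation list, 29 listed genes were past 2-fold in epithelial-like and 22 in stroma-like cells, beside 14.9% and 11.7% of all genes. In the proliferation list itself 17 genes were counted in epithelial-like cells. All 17 were higher in d/d with intervals above 0, 11 of them past 2-fold, with values from 0.54 for Plk1 to 1.72 for Kif11 and a median of 1.17. The 11 were Top2a, Rrm2, Ccnb2, Ccna2, Birc5, Tpx2, Kif11, Mcm3, Pcna, Cenpf and Cdc20. In stroma-like cells 3 were counted, all higher, at 0.49 for Mcm3, 1.41 for Rrm2 and 1.69 for Top2a. These genes encode the machinery of DNA replication and mitosis.

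Other cytokines that signal through gp130 were scarce. Of the 7 listed ligands, Clcf1 alone reached 100 UMIs, with 201 and 57 in epithelial-like cells and a log2 difference of -0.10 (-0.55 to 0.33). None of the 4 measured receptors of the family did in either class. Osm and Il27 gave 0 UMIs in epithelial-like cells.

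Of the kinases and STAT factors, 1 of 8 was past 2-fold in epithelial-like cells, lower in d/d, where 4.66% of all genes were. All 8 on the list were counted, with values below 0 for 7 and above 0 for 1 and a median of -0.56. The intervals of 4 lay below 0 and those of the other 4 included it, with -0.05 (-0.60 to 0.46) for Jak1. Stat5a, a transducer of cytokine and prolactin signals, gave 364 UMIs in f/f against 34 in d/d, or 202 and 62.2 CPM, a log2 difference of -1.70 (-2.25 to -1.19). Jak2, a kinase bound to gp130 that was picked after its values were seen, gave 1080 and 211 UMIs and a log2 difference of -0.63 (-0.85 to -0.42). In stroma-like cells 7 were counted, 4 higher and 3 lower, from -0.47 for Jak1 to 0.17 for Stat2, with a median of 0.03.

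Feedback regulators and known targets of STAT3 differed in both directions. Of 20 listed, 12 were counted in epithelial-like cells, 8 higher and 4 lower in d/d, with a median of 0.18. Junb, a subunit of AP-1, gave 152 and 18 UMIs and a log2 difference of -1.36 (-2.15 to -0.65), and Hif1a, the hypoxia factor, 142 and 21 UMIs and -1.04 (-1.77 to -0.37). Cebpd was the highest at 0.74 (0.31 to 1.16). Socs3, the feedback inhibitor of the receptor, gave 5 UMIs in either library. Among stroma-like cells 9 were counted, 6 higher and 3 lower, from -0.56 for Myc to 0.76 for Cebpb.

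Of 10 listed epithelial genes linked to LIF, 5 were counted in epithelial-like cells and 1, Acod1, was past 2-fold, where 4.66% of all genes were lower by as much. The values of all 5 were below 0, with a median of -0.46, and the intervals of 3 excluded 0. Acod1, the itaconate-producing enzyme also called Irg1, gave 271 UMIs in f/f against 10 in d/d, or 150.4 and 18.3 CPM, a log2 difference of -3.04 (-4.12 to -2.14). The smallest difference was that of Lpar3, a lysophosphatidic acid receptor, at -0.13 (-0.70 to 0.40), and the interval of Muc1, a cell surface mucin, also included 0. Calb1 gave 3037 and 717 UMIs and Ltf, the lactoferrin gene, 728 and 144, with log2 differences of -0.36 (-0.48 to -0.24) and -0.62 (-0.88 to -0.36), both picked after their values were seen. Ltf is also one of the genes that define an epithelial state above. In stroma-like cells the 2 counted genes were higher in d/d, Calb1 by 0.77 and Ltf by 1.04, beside the higher sum of epithelial markers in those cells, whose part was not tested.

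**Figure D4:**
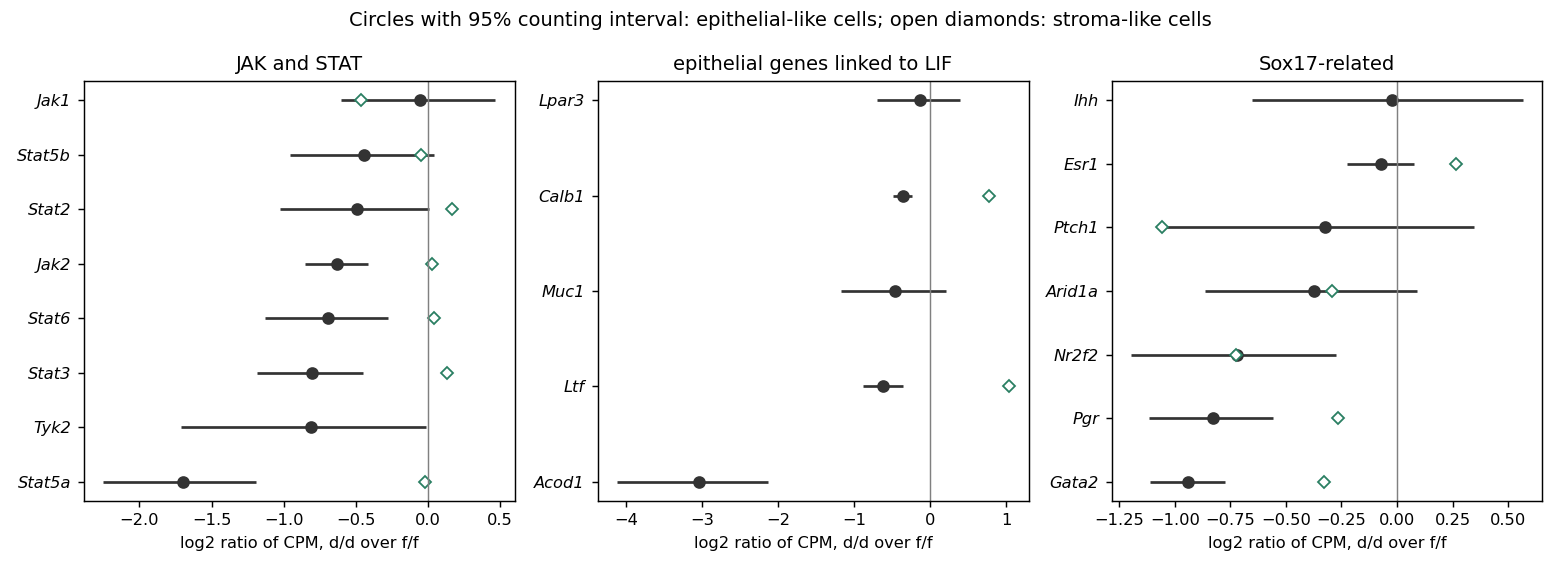
Log2 ratio of CPM, d/d over f/f (x axis), of counted genes (y axis) of 3 lists, with Stat3 added to the JAK and STAT panel and the 1 higher gene of that list not drawn. Black circles with 95% counting intervals are epithelial-like cells and open diamonds stroma-like cells, the latter drawn where a gene reached 100 UMIs there. Stat5a at -1.70 and Acod1 at -3.04 stand farthest from 0 in the epithelium.

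Genes linked to the Msx factors, chiefly of the Wnt pathway, were found on both sides of 0. Of 15 listed, 7 were counted in epithelial-like cells, 3 higher and 4 lower. Wnt11 gave 584 UMIs in f/f against 25 in d/d, or 324 and 45.8 CPM, a log2 difference of -2.82 (-3.46 to -2.25). Wnt7a, a ligand of the luminal epithelium, gave 188 and 153 UMIs, or 104 and 280.0 CPM, a log2 difference of 1.42 (1.11 to 1.74). In stroma-like cells 5 were counted, 4 higher and 1 lower, from -0.82 (-1.26 to -0.41) for Wnt5a to 0.86 (0.31 to 1.38) for the homeobox gene Dlx5.

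Of the other KLF genes 5 of 12 were counted in epithelial-like cells, 4 higher and 1 lower. Klf9, a factor tied to progesterone receptor action, gave 124 and 9 UMIs and a log2 difference of -2.06 (-3.22 to -1.09), and Klf7 77 and 48 UMIs and 1.04 (0.49 to 1.58). In stroma-like cells Klf9 was again the lowest, at -0.74 (-1.22 to -0.29), and Klf7 the highest, at 0.89 (0.27 to 1.48). Among 5 genes linked to Klf5, 4 were counted, 2 higher and 2 lower. Ccnd1, which encodes cyclin D1, gave 86 and 71 UMIs and a log2 difference of 1.45 (0.97 to 1.92), and Ptgs1, a prostaglandin synthase, 511 and 91 UMIs and -0.77 (-1.11 to -0.44). In stroma-like cells Ptgs1 alone was counted, at 0.69 (0.10 to 1.26).

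Of the other SOX genes 4 of 9 were counted in epithelial-like cells, 3 higher and 1 lower, from -0.96 (-1.32 to -0.61) for Sox5 to 0.62 (0.13 to 1.09) for Sox4. In stroma-like cells 4 were counted, from -0.26 for Sox4 to 0.60 (0.29 to 0.91) for Sox12. Of 10 listed genes linked to Sox17, chiefly of the progesterone and hedgehog pathways, 7 were counted in epithelial-like cells and 0 were past 2-fold, where 9.14% of all genes were. Their values were all below 0, with a median of -0.37, but only 3 intervals (Gata2, Pgr and Nr2f2) excluded 0. Gata2, a partner of the progesterone receptor, gave 2108 and 333 UMIs, or 1170 and 609 CPM, a log2 difference of -0.94 (-1.11 to -0.77). Ihh, the hedgehog ligand sent from epithelium to stroma, gave 104 and 31 UMIs and -0.02 (-0.65 to 0.57). In stroma-like cells the values of 6 of 7 were below 0, 4 of them with intervals below 0, beside 58.0% and 14.9% of all genes. Ptch1, the hedgehog receptor, was the lowest there, at 570 and 68 UMIs and a log2 difference of -1.06 (-1.44 to -0.69). Esr1 was the one higher gene, at 0.27 (0.11 to 0.42).

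The genes most like each member were those with the highest Pearson r of log2(CPM + 10) over the 9 class-by-library levels that had at least 20000 UMIs, among 8559 genes. The levels share libraries and cell classes, so r is a description. For Msx1 they were Cdkl1, Tmc4 and Ltf, with r from 0.95 to 0.96, and for Klf5 Nudt14, Il17rb and Noxa1 (0.98 to 0.99). For Msx2 they were Misp, Sel1l3 and Adamts6 (0.98 each), and for Sox17 Tnpo1, Hoxb5 and Capn5 (0.92 each). Lifr was closest to Nfkbia, Fam76b and Ly6e (0.96 to 0.99) and Il6st to Miga1, Foxo1 and Gnpnat1 (0.98 to 0.99). Stat3 had the least close neighbours, Slc25a37, Itprid2 and Lpar6, at 0.85 to 0.89. Lif had too few UMIs for this measure.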

How the data were processed

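The deposited tables hold raw UMI counts for each gene in each called barcode, without normalization. Per the file headers, the program was Cell Ranger 9.0.0. The builds mm10 and GRCm39 are both named per the submitters' processing notes, and which one served is not given in the sources used here. The version of the probe set was not given either.

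Barcodes with at least 200 genes and at most 10% mitochondrial UMIs were used, leaving out 280 of 5783 f/f and 295 of 2125 d/d barcodes. Scrublet called 2 barcodes in each library, too few to be taken as a working doublet call, so no doublets were removed. Cells were gated on 7 marker lists. UMIs were summed by class and library and divided by the class total (CPM). Sums have exact Poisson intervals, shares Clopper-Pearson intervals, and ratios exact conditional binomial intervals. Differences of 2 log2 ratios have a normal interval from the 4 counts. A gene was counted with at least 100 UMIs over both libraries and called at 2-fold. The members, lists and sub-states were chosen with earlier results of these data known. Genes named were the 8 members, the 3 genes most similar to each, and from each list and class the highest, the lowest and any past 2-fold. A gene that this rule names is not reported here.

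Tools were Python 3.11.15, numpy 2.4.6, scipy 1.17.1, pandas 2.3.3, scanpy 1.11.5 and leidenalg 0.10.2. Normalization factors by TMM came from edgeR 4.0.16 on the deposited counts, for scaling alone. The interval code was tested on simulated data. Sequencing reads were not used here.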

Additional observations from a re-analysis of the deposited data

How the results depend on the processing

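Alternatives in filtering, gating, clustering, scaling, thinning and cell selection were applied to 16 log2 ratios of d/d over f/f. These were of 8 genes in epithelial-like and stroma-like cells, and gave 174 values. Of these, 163 stayed within the counting interval and 11 moved beyond it. A reversal was counted only for a ratio with at least 100 UMIs and a main value past 2-fold. None of the 16 met both, so no value could count as reversed. Epithelial Stat3, whose main interval excluded 0, did change sign in 1 setting. In epithelial-like cells with no proliferation UMI, Lifr moved to 1.09, Stat3 to 0.0031 and Sox17 to -0.11. Thinning every cell to 500 UMIs moved epithelial Il6st to -0.55 and Stat3 to -1.24, and stromal Msx2 to -1.59 (23 and 2 UMIs) and Sox17 to 0.62. Leaving out the Lrp2 state moved epithelial Il6st to -0.66. With all deposited barcodes epithelial Msx1 was -0.17 and Sox17 -0.48. With Leiden clusters in place of the gate stromal Stat3 was 0.59. Apart from the cells with no proliferation UMI, epithelial Stat3 was lower in d/d under all alternatives. Counting listed genes from 20 UMIs in place of 100 gave 22 past 2-fold in stroma-like cells, against 4, and 29 in epithelial-like cells, against 20. The sign varied with the setting for epithelial Lifr, Il6st, Msx1, Msx2 and Klf5 and stromal Msx2 and Klf5, and the stated ranges of Stat3 and Sox17 in epithelial-like cells were -1.24 to 0.0031 and -0.48 to -0.11. The ratios of epithelial-like over stroma-like cells gave 112 values under alternatives chosen after seeing the data, with 18 moved. Of those with a main value past 2-fold, 0 reversed. The ratios of Msx1 and Sox17 in f/f ran from 1.43 to 2.38 and from 1.76 to 2.63. Leaving out the 1 cell with the most UMIs of a gene was also added after seeing the data and moved none of the 15 that it could be computed for. Leaving out a replicate was not possible with 1 library per genotype. No paired analysis was possible because each genotype has 1 library and the labels give no shared replicate number. Depth limits Lif most, with 23 and 28 UMIs in all.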

Other observations

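The mesothelial-like Leiden cluster, led by Upk3b, Msln and Upk1b, held 323 f/f and 143 d/d cells. Of these, 26 and 7 were in the mesothelial-like class of the marker gate. Il6st was 321 CPM there in f/f (94 UMIs) and 290.0 CPM in d/d (37 UMIs), and Stat3 was 273 CPM (80 UMIs) and 251 CPM (32 UMIs). Both genes were thus as high in this cluster as in most epithelial-like clusters, with overlapping intervals between the libraries (217 to 340 CPM and 172 to 354 CPM for Stat3). Msx1, at 198 and 141 CPM, and Sox17, at 147 and 133 CPM, were at a fraction of their epithelial level.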
